A study of Triticum aestivum with 3 samples.

Results

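The miR444 and miR5200 families of wheat (Triticum aestivum) were described in leaf small RNA as 21 distinct sequences of 1896, found by the family number in the miRNA name: 19 of miR444 and 2 of miR5200. The sequences were chosen by name alone, but the pair of families was selected on earlier results of the same normalized reads, among them the level of tae-miR5200 in each treatment. Every value is therefore a description, and no test was run. The study read leaves of wheat seedlings after 2 days in 3 samples, 1 per treatment. They were DTT+TUDCA (dithiothreitol given together with tauroursodeoxycholic acid), DTT alone, and control. DTT is a reducing agent that disturbs protein folding in the endoplasmic reticulum, and the bile acid TUDCA serves as a chemical chaperone. Cultivar, doses and vehicle were not stated in the labels. Each sample was read as 2 RNA pools, which by the series' design text were drawn from 3 biological replicates of the treatment. It does not say which replicates went into which pool, so the pools were handled as repeat runs of 1 sample and not as independent samples.

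MicroRNAs of plants guide ARGONAUTE proteins to messenger RNAs with a nearly complementary site, which are then cut or repressed. miR444 is found in monocots. In rice its targets are MADS-box transcription factor genes related to AGL17 and ANR1, with roles in nitrate signalling, tillering and antiviral defence, and its genes are transcribed from the strand opposite those targets. miR5200 is known from the Pooideae, the grass group of wheat, barley and Brachypodium. In Brachypodium it cuts transcripts of FLOWERING LOCUS T (FT)-like genes, the mobile signal for flowering, and is abundant in short days.

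The results turn on 4 abundant sequences, which follow as deposited, 5′ to 3′ with T for U, with the seed (bases 2 to 8) in capitals. The passenger arm of miR5200 stands after them.
tae-miR5200: tGTAGATActccctaaggctt
osa-miR444b.1: tGTTGTCTcaagcttgctgcc
bdi-MIR444b-p3: tGCAGTTGctgcctcaagctt
bdi-miR444c: tGCAGTTGttgtctcaagctt
tae-MIR5200-p5: tAAGCCTTagtgaatatctac

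The prefix of a name is the species in which the form was registered (tae wheat, ata Aegilops, osa rice, bdi Brachypodium, hvu barley). In the table's names, p5 or p3 marks a sequence listed as new on the 5′ or 3′ part of a registered precursor. Of the miR444 sequences, 3 were registered in exactly that form (osa-miR444b.1, bdi-miR444c and hvu-miR444b), 5 had changed ends, written with L and R, and 11 were new. None carried a wheat or Aegilops name. Both miR5200 sequences were wheat-named, and tae-miR5200 was registered in that form. With an offset of 1 base, 18 of its 21 positions were complementary to tae-MIR5200-p5.

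The 19 miR444 sequences held 14 distinct seeds, yet each could be placed, with up to 5 mismatches, on a single stretch. Exact overlaps of at least 12 bases joined the forms into a string of 43 bases. On it, 10 forms lay without a mismatch, 5 with at least 1, and 4 as the reverse complement with 3 to 5 mismatches. The abundant forms fell into a pair of registers 6 bases apart. The last 15 bases of bdi-miR444c are the first 15 of osa-miR444b.1, so the 2 share most of their letters but not a seed. The first register holds bdi-miR444c, bdi-MIR444b-p3, hvu-miR444b and hvu-miR444b_R+1, all with the seed GCAGTTG. Counted from 1 at the 5′ end, hvu-miR444b differs from bdi-miR444c by T9C, and bdi-MIR444b-p3 by T9C and T12C. No sequence outside the 2 families carried GCAGTTG, the seed GTTGTCT of osa-miR444b.1, or the seed GTAGATA of tae-miR5200.

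**Figure D1:**
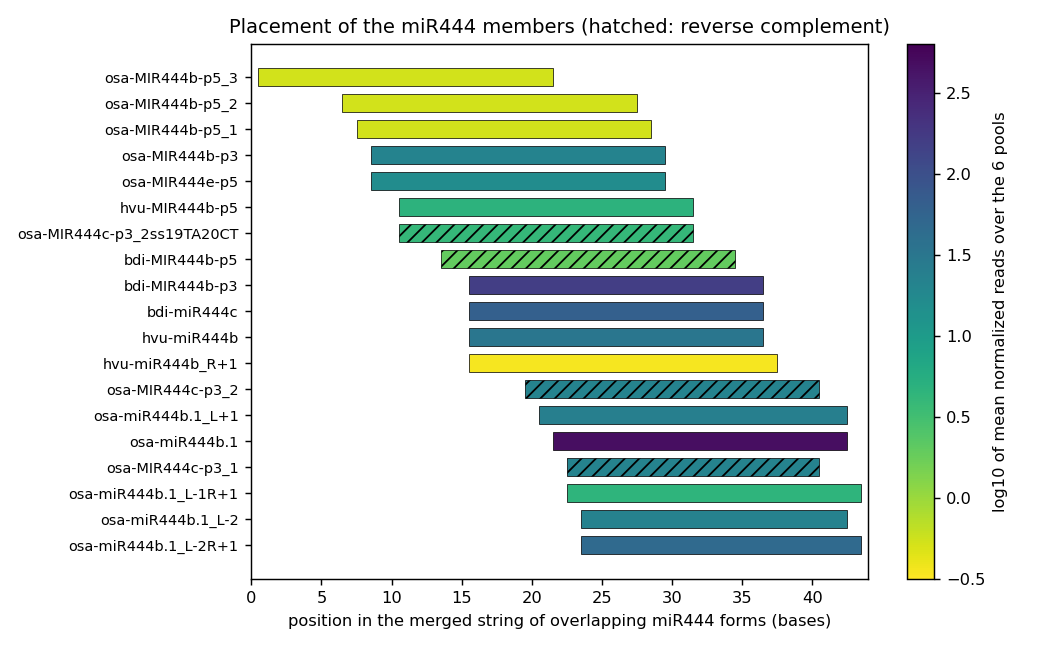
Placement of the 19 miR444 sequences along the 43-base string joined from their overlaps, in bases, with 1 bar per sequence, its colour giving log10 of the mean normalized reads over the 6 pools and hatching marking reverse complements. The darkest bar is osa-miR444b.1, 6 bases to the right of bdi-miR444c and bdi-MIR444b-p3.

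Positions are given in the authors' deposited table on wheat TGACv1 scaffolds or on Traes transcripts. tae-miR5200 and its passenger arm were listed in 1 precursor on scaffold 592091 of chromosome arm 7BS, minus strand, 110211 to 110303. osa-miR444b.1 was listed on scaffold 130458 of 2BL, plus strand, 58687 to 58746, and bdi-miR444c on scaffold 093384 of 2AL, plus strand, 17934 to 17993. A further miR444 position lay on that 2AL scaffold, from 14593 to 14740, with 3193 bases between them. Of the 19 miR444 sequences, 13 were listed on chromosomes of group 2, 3 on group 6 and 3 on group 7. All 8 that were listed on transcripts lay on the minus strand of the transcript, bdi-MIR444b-p3 among them (a 6AL transcript, 1218 to 1391). The listed spans ran from 22 to 174 bases, and 6 of those for miR444 were under 40 bases. A position is the one listed for a sequence and does not show which genome copy its reads came from. Gene annotation around these positions was not used here.

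Levels are the authors' deposited normalized reads. In each pool most values were whole multiples of the value of 1 read, and all 90 member values above 0 were whole within 0.01 reads, so the reads behind a value could be given. By this step the 1896 listed sequences summed to 638382 and 1211765 reads in the DTT+TUDCA pools, 611784 and 752518 with DTT, and 420488 and 330652 in control. These sums count entries of identical values more than once and are not the sequencing depth of a pool. The makeup of the pools differed within a treatment. The median of the 251 tae- and ata-named sequences was 43.7 and 2.06 normalized reads in DTT+TUDCA pools 1 and 2, 3.13 and 10.1 in DTT pools 1 and 2, and 3.14 and 6.79 in the control pools. Each level below therefore moves with its pool, and levels were also set against that median and against each other within a pool. In bulk leaf RNA, fewer cells that make a miRNA and less of it per cell cannot be told apart.

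tae-miR5200 was at 178 and 14.4 normalized reads in DTT+TUDCA pools 1 and 2, 26.1 and 70.6 in DTT pools 1 and 2, and 98.9 and 210 in the control pools. Both DTT pools lay below both control pools, whereas the DTT+TUDCA pools lay on either side of control pool 1. Relative to the median of the tae- and ata-named sequences, it stood at 4.07 and 7.00 times in the DTT+TUDCA pools, 8.33 and 7.00 times in DTT pools 1 and 2, and 31.5 and 31.0 times in the control pools. On that scale all 4 treated pools lay below both control pools, as did those of osa-miR444b.1, given below. How many other sequences did so was not counted, so this order is not read as particular to tae-miR5200. The median is only a few reads in most pools, so its step is coarse. In the control pools it was 3.14 and 6.79, where 1 read was worth 1.57 and 1.70. A shift of 1 read would change these multiples, and how close the pools of a treatment lie is not read as a result. Among 249 tae- and ata-named sequences outside both families, its place from the top was 74 and 69 with DTT+TUDCA, 64 and 64 with DTT, and 40 and 40 in control.

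osa-miR444b.1, the most abundant of the 21 sequences, was at 1374 and 127 normalized reads in the DTT+TUDCA pools, 189 and 449 in DTT pools 1 and 2, and 228 and 496 in the control pools. DTT+TUDCA held both the highest and the lowest pool. Its place beside the same 249 sequences was 32 and 33 with DTT+TUDCA, 32 and 31 with DTT, and 31 and 29 in control. So its place moved little, while that of tae-miR5200 was further down in the 4 treated pools. Against the median it was at 31.5 and 61.5 times with DTT+TUDCA, 60.3 and 44.6 times with DTT, and 72.5 and 73.0 times in control, lower in every treated pool than in both control pools. These multiples carry the same coarse step of the median.

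bdi-MIR444b-p3 was at 474 and 52.1 normalized reads in the DTT+TUDCA pools, 64.8 and 132 in DTT pools 1 and 2, and 83.2 and 141 in the control pools. It lay above tae-miR5200 in the 4 treated pools and below it in both control pools. bdi-miR444c was at 163 and 11.3 with DTT+TUDCA, 20.9 and 43.9 with DTT, and 23.5 and 120 in control. Its control pools lay further apart than its DTT pools, and all 3 treatments overlapped.

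**Figure D2:**
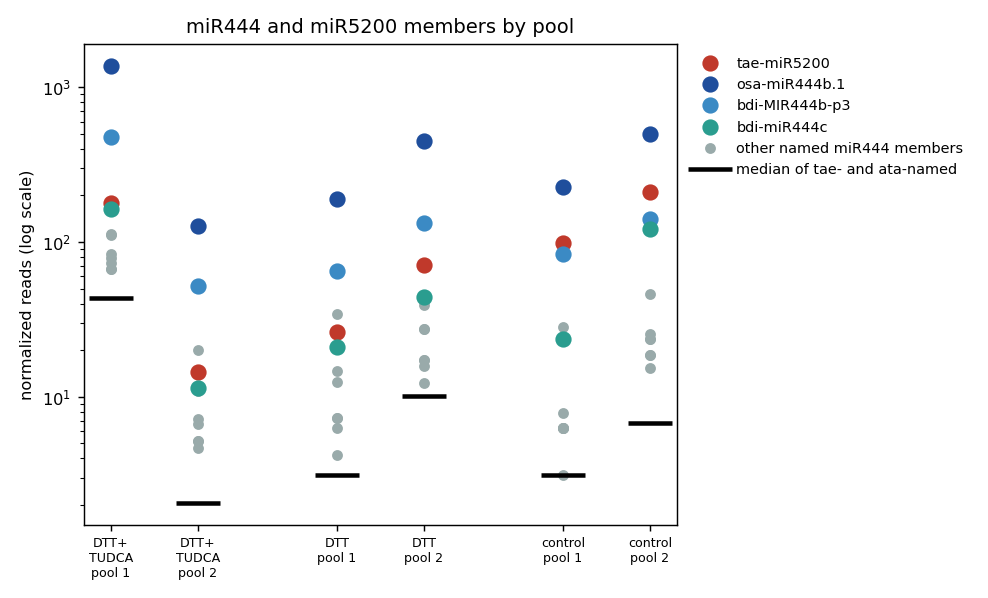
Normalized reads on a log scale in the 6 pools, with 1 point per sequence that averaged at least 20 and a black bar for the median of the 251 tae- and ata-named sequences. The red point, tae-miR5200, is above bdi-MIR444b-p3 in both control pools, at 98.9 and 210, and below it in the 4 treated pools.

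A ratio of sequences within a pool does not depend on how the pool was scaled, so each was set against osa-miR444b.1 (this ratio was chosen after the values were seen). Per 100 reads of osa-miR444b.1, tae-miR5200 had 12.9 reads (95% interval 11.0 to 15.2) and 11.4 (7.41 to 16.9) in DTT+TUDCA pools 1 and 2. It had 13.8 (8.71 to 21.1) and 15.7 (12.6 to 19.5) in DTT pools 1 and 2, and 43.4 (31.8 to 58.8) and 42.5 (34.1 to 52.6) in the control pools. The intervals of the treated pools lay below those of the control pools. They are exact Clopper-Pearson intervals on the implied reads, 25 to 167 of tae-miR5200 per pool, and cover counting error only, since reads without molecular identifiers are not independent molecules. The mean ratio was 3.53 times lower with DTT+TUDCA than in control, and 2.91 times lower with DTT than in control. Between DTT+TUDCA and DTT it was 12.2 and 14.8 per 100, with intervals that overlapped in every pair of pools.

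The ratio to osa-miR444b.1 of the other tae- and ata-named sequences gives the background. Of 107 of them with a mean of at least 20, 0 (0.0%) lay below both control pools in each DTT+TUDCA pool, and 10 (9.35%) did so in each DTT pool. Among all 534 sequences outside both families and above that mean, these were 13 (2.43%) and 15 (2.81%). The log2 difference of tae-miR5200 was -1.82 for DTT+TUDCA and -1.54 for DTT against control, and 0 of the 107 lay lower in either comparison. Their medians were 0.49 and 0.20, and their lowest values -0.76 and -1.45. Of those 10, the 2 (1.87% of the 107) whose mean ratio with DTT was also at least 2-fold lower than in control were ata-miR5168-5p and ata-miR172c-5p_R-3. Both comparisons use the same control pools. The families were picked with the levels of tae-miR5200 by treatment known, and the ratio was chosen after the values were seen. The place of tae-miR5200 below the 107 is therefore a description and not a test. Its place among the 534 sequences was not computed. For DTT+TUDCA against DTT the log2 difference of tae-miR5200 was -0.28, with 7 of the 107 lower.

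**Figure D3:**
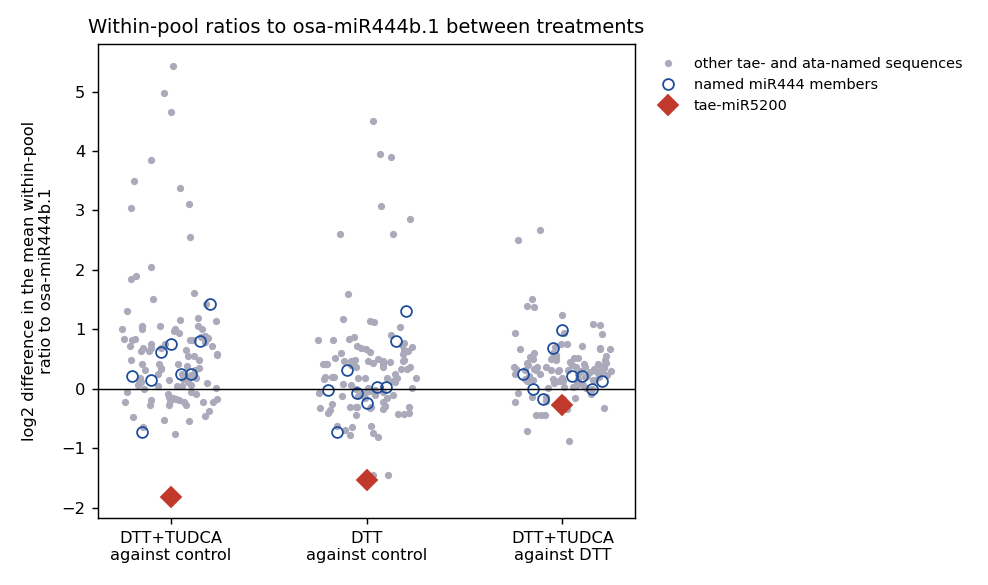
Log2 difference between treatments in the mean within-pool ratio to osa-miR444b.1, for each of 107 tae- and ata-named sequences (grey), 9 miR444 sequences (open circles) and tae-miR5200 (red). The red diamond is at -1.82 and -1.54 in the comparisons with control, below every grey point there, and at -0.28 for DTT+TUDCA against DTT. The families were picked with the levels of tae-miR5200 known.

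What the ratio is set against mattered for its size. Per 100 reads of the summed miR444 family, tae-miR5200 had 6.67 and 5.73 with DTT+TUDCA, 7.16 and 8.92 with DTT, and 25.2 and 22.8 in control. Per 100 reads of bdi-MIR444b-p3 it had 37.5 and 27.7, 40.3 and 53.3, and 119 and 149, in the same order of treatments. All treated pools lay below both control pools with these denominators. Per 100000 summed normalized reads of the tae- and ata-named sequences outside both families, tae-miR5200 had 39.3 and 4.40 with DTT+TUDCA, 7.11 and 21.6 with DTT, and 25.3 and 62.8 in control. There DTT+TUDCA pool 1 lay above control pool 1, and the mean was higher with DTT+TUDCA than with DTT.

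osa-miR444b.1 made up 51.5% and 50.3% of the summed family with DTT+TUDCA, 51.9% and 56.8% with DTT, and 58.0% and 53.7% in control. bdi-MIR444b-p3 had 34.5 and 41.1 reads per 100 of osa-miR444b.1 with DTT+TUDCA, 34.3 and 29.5 with DTT, and 36.6 and 28.4 in control, with overlapping treatments. bdi-miR444c had 11.9 and 8.94 with DTT+TUDCA, 11.0 and 9.78 with DTT, and 10.3 and 24.3 in control. Only control pool 2 stood apart, and its interval of 18.5 to 31.6 did not overlap that of control pool 1 (5.64 to 17.6).

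**Figure D4:**
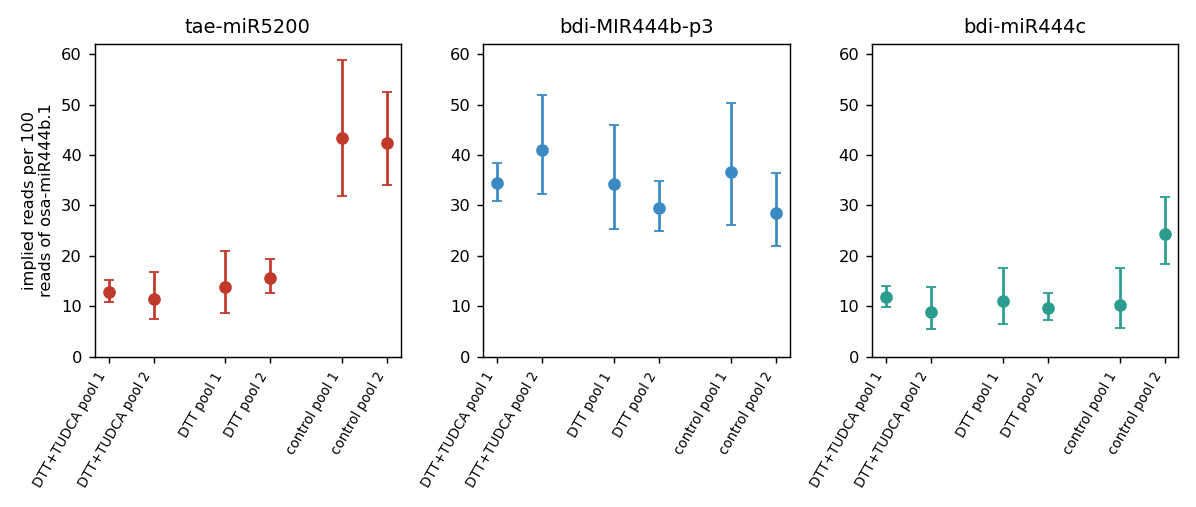
Implied reads of tae-miR5200, bdi-MIR444b-p3 and bdi-miR444c per 100 reads of osa-miR444b.1 in each pool, with bars for the 95% counting interval. The treated pools of tae-miR5200 sit between 11.4 and 15.7 and its control pools at 43.4 and 42.5, while bdi-MIR444b-p3 runs from 28.4 to 41.1 over all pools.

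Minor miR444 forms were set against osa-miR444b.1 as well. osa-miR444b.1_L+1, 1 base longer at the 5′ end, had 5.35 and 8.54 reads per 100 with DTT+TUDCA, 6.63 and 6.09 with DTT, and 1.38 and 3.77 in control. hvu-miR444b had 8.14 and 5.69 with DTT+TUDCA, 7.73 and 6.09 with DTT, and 2.76 and 5.14 in control. In these forms, osa-miR444b.1_L+1 and hvu-miR444b, every treated pool lay above both control pools, but the control values rest on 2 and 11 reads and on 4 and 15 reads. The counting interval of control pool 2 overlapped those of all treated pools for both forms. Of the 107 tae- and ata-named sequences above a mean of 20, 35.5% had this ratio above both control pools in each DTT+TUDCA pool, and 22.4% in each DTT pool. No such share was computed over all sequences or for all treated pools at once, so these places are not read as a result. Both forms were highest in DTT+TUDCA pool 1, at 73.5 and 112 normalized reads, so their means of at least 20 lean on that pool. The trimmed osa-miR444b.1_L-2R+1 was read at 111 and 20.1 normalized reads with DTT+TUDCA, 34.5 and 38.9 with DTT, and 28.3 and 45.8 in control. osa-miR444b.1_L-2 was at 78.8 and 6.70, 6.27 and 15.8, and 7.85 and 18.7 in the same order. Both overlapped between treatments on that scale. Per 100 reads of osa-miR444b.1, osa-miR444b.1_L-2R+1 had 8.06 and 15.9 with DTT+TUDCA, 18.2 and 8.65 with DTT, and 12.4 and 9.25 in control, and its intervals did not overlap between the pools of DTT+TUDCA or between those of DTT. osa-miR444b.1_L-2 had 5.74 and 5.28 with DTT+TUDCA, 3.31 and 3.53 with DTT, and 3.45 and 3.77 in control. Both DTT+TUDCA pools lay above the other 4, with counting intervals that overlapped in every pair of pools. osa-miR444b.1_L-2 reached a mean of 20 only through DTT+TUDCA pool 1, as its other pools were at 6.27 to 18.7 normalized reads. Its order of pools is therefore not read as a result.

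osa-MIR444c-p3_1 and osa-MIR444c-p3_2 were placed on the joined string as its reverse complement, each with 3 mismatches. osa-MIR444c-p3_2 was listed on the plus strand of the 2AL scaffold, as bdi-miR444c was. Over 18 bases osa-MIR444c-p3_1 and osa-MIR444c-p3_2 are the same letters. They carried the same 6 values, 67.1 and 5.16 with DTT+TUDCA, 7.31 and 17.3 with DTT, and 6.28 and 23.8 in control, so they stand for 1 set of reads. osa-MIR444b-p3 was at 84.2 and 4.64, 4.18 and 12.2, and 6.28 and 15.3 in that order. Per 100 reads of osa-miR444b.1 it had 6.12 and 3.66 with DTT+TUDCA, 2.21 and 2.72 with DTT, and 2.76 and 3.08 in control. Both DTT+TUDCA pools lay above the other 4, with counting intervals that overlapped those of control. osa-MIR444b-p3 reached a mean of 20 only through DTT+TUDCA pool 1, as its other pools were at 4.18 to 15.3 normalized reads. That order is therefore not read as a result. On the deposited scale DTT+TUDCA pool 1 was the highest pool for these forms, and the others held 4 to 24 reads. The 10 sequences with a mean under 20 reached at most 62.9 normalized reads, in DTT+TUDCA pool 1. All 10 were above 0 in that pool, against 2 in DTT+TUDCA pool 2, 2 and 5 in DTT pools 1 and 2, and 1 and 4 in the control pools. Of all 1896 sequences, 1665 and 1537 were above 0 in the DTT+TUDCA pools, 1348 and 1574 with DTT, and 1173 and 1269 in control. tae-MIR5200-p5 had 10 and 0 reads with DTT+TUDCA, 0 and 6 with DTT, and 3 and 6 in control, beside 167 and 28, 25 and 98, and 63 and 124 reads of tae-miR5200. Values worth a single read were nearly absent from the table (2 to 7 per pool), so no upper limit is given for an entry listed at 0.

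DTT against control on the deposited scale compares the sample given the reducing agent alone with the control sample. Sequences with at least 20 normalized reads over both treatments were compared by the log2 ratio of their summed pools plus 1, and counted as higher or lower past 2-fold. Of 12 measured members, 2 were lower and 1 was higher. The background was 10.2% lower and 16.8% higher of 958 sequences, and 3.79% lower and 12.9% higher of the 132 tae- and ata-named ones outside both families. tae-miR5200 was 3.18 times lower, from pools that did not overlap, and stayed past 2-fold when any single pool was left out (log2 -2.54 to -1.03). bdi-miR444c was 2.20 times lower with overlapping pools, and its log2 ratio of -1.14 was 0.45 without control pool 2. The higher entry was osa-MIR444e-p5 (chosen after its values were seen), at 7.31 and 14.4 normalized reads with DTT against 0 listed and 6.79 in control. It was under 20 in control and met the floor only with its DTT reads. The 11 measured miR444 sequences had a median log2 ratio of -0.18, against 0.08 over all sequences measured.

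The chaperone was added on top of DTT and no sample had it alone, so DTT+TUDCA against DTT describes it only in the presence of DTT. DTT+TUDCA against control describes both agents together. With 1 sample per treatment, a treatment cannot be told apart from a difference between samples. Against DTT, 13 of 15 measured members were at least 2-fold higher and 0 lower, all 13 of miR444. The background was 40.2% higher and 3.46% lower of 1099 sequences, and 83.5% higher and 0.568% lower of 176 tae- and ata-named ones. Against control, 11 of 15 members were higher and 0 lower, again all of miR444, beside 41.4% higher and 6.05% lower of 1107 sequences and 76.4% higher and 0.575% lower of 174 tae- and ata-named ones. Most measured sequences with wheat or Aegilops names were thus higher in both comparisons as well. The floor of 20 is on both treatments summed, so a sequence can pass through its DTT+TUDCA reads and then count as higher. Of the higher members, hvu-MIR444b-p5 (1.44), osa-miR444b.1_L-1R+1 (6.73), osa-MIR444c-p3_2ss19TA20CT (7.20) and osa-MIR444b-p3 (16.4) were under 20 with DTT. In control hvu-MIR444b-p5 (6.79), osa-MIR444e-p5 (6.79) and osa-miR444b.1_L-1R+1 (5.09) were. The background used the same floor, and the member counts are not read as a result. With identical values counted once, 12 of 14 members were higher against DTT and 10 of 14 against control. Several of these are osa-miR444b.1 with changed ends, so they are not separate observations. The summed miR444 family had a log2 ratio of 1.34 to DTT and 1.15 to control, which were -1.19 and -1.38 without DTT+TUDCA pool 1. tae-miR5200 had a log2 ratio of 0.99 to DTT and -0.68 to control. These were -1.71 and -3.38 without DTT+TUDCA pool 1, and 1.87 and 0.20 without pool 2. The median of the tae- and ata-named sequences, 43.7 in pool 1 and 2.06 in pool 2, moved with these values, and its part in them was not tested.

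**Figure D5:**
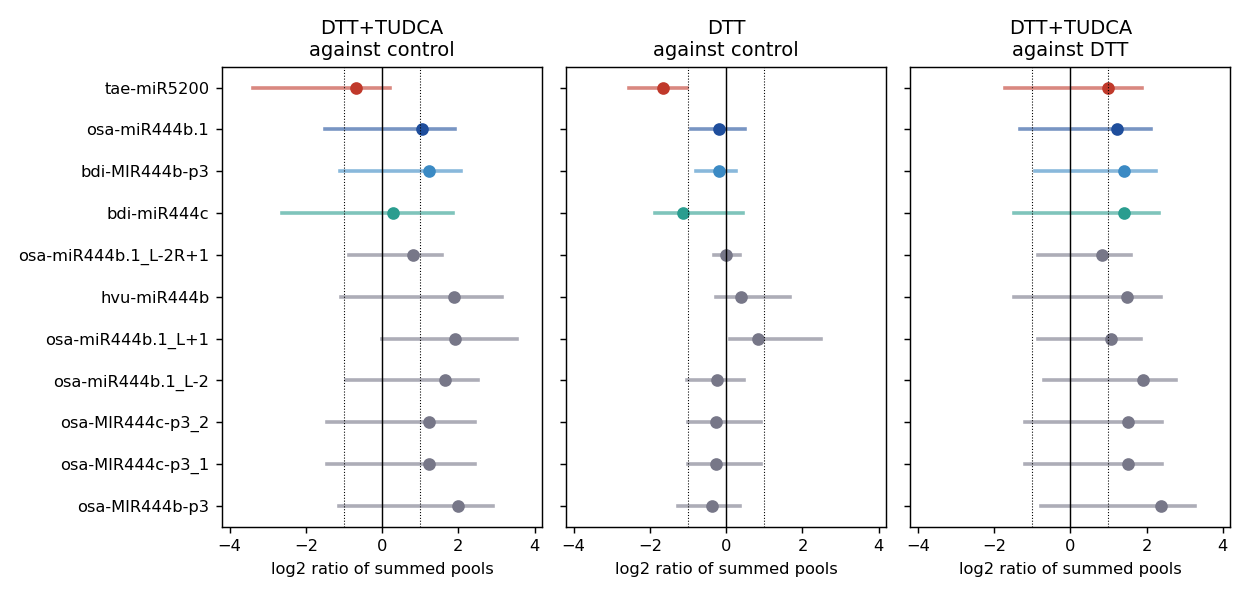
Log2 ratio of the summed pools for the 11 sequences that averaged at least 20 normalized reads, in 3 comparisons, with a line from the lowest to the highest value when 1 pool is left out and dotted lines at 2-fold. For DTT against control the line of tae-miR5200 stays below -1, from -2.54 to -1.03, and in the comparisons with DTT+TUDCA each of the 11 lines crosses 0.

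Once pools were scaled to the 113 tae- and ata-named sequences outside both families that were above 0 in every pool, 1 of 12 members was higher and 2 lower for DTT+TUDCA against control, and 0 were higher or lower against DTT. The background on this scale was 18.6% higher and 11.7% lower of 1032 sequences against control, and 7.43% higher and 5.71% lower of 1050 against DTT. There osa-miR444b.1 had a log2 ratio of -0.43 to control and tae-miR5200 of -2.24.

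Other miRNA families known for flowering time or phase change were listed by family number (miR156, miR157, miR172, miR159, miR319, miR169, miR399, miR393 and miR824). Grass-named entries of the list had 5 higher and 8 lower of 56 measured for DTT against control, with a median log2 ratio of -0.32. For DTT+TUDCA they had 31 higher and 2 lower of 65 against DTT, and 23 higher and 4 lower of 63 against control. Entries with other names had 6 higher and 8 lower of 83, 10 and 2 of 81, and 8 and 7 of 83 in those comparisons. Over all sequences, 16.8% were higher and 10.2% lower for DTT against control, with a median log2 ratio of 0.08. For DTT+TUDCA these shares were 40.2% and 3.46% against DTT, and 41.4% and 6.05% against control. Of each family the most abundant tae- or ata-named entry was set against osa-miR444b.1 in the same way as tae-miR5200, and for these entries the log2 differences between DTT and control were smaller in size. ata-miR172b-3p, which targets AP2-like repressors of flowering, was at -0.05, and tae-miR159a_R-1, a regulator of GAMYB genes, at 0.0026. tae-miR319, which targets TCP genes, was at -0.62 and ata-MIR169d-p3, of the family that targets NF-YA genes, at -0.42. The miR156 passenger ata-miR156c-3p_L+1 was at 0.46 and ata-miR393-5p_L-1R+1, of the auxin receptor family, at 0.25. ata-miR399b-5p_L-2R+2 was above 0 in DTT+TUDCA pool 1 alone. Other entries of the list lay lower. Over its 17 tae- and ata-named entries with a mean of at least 20, the log2 difference between DTT and control ran from -1.45 to 0.46, with a median of -0.22. The lowest was ata-miR172c-5p_R-3, near the -1.54 of tae-miR5200, and ata-miR172a-3p_R-2 was at -0.78 and ata-miR172c-3p at -0.34 (these 3 were chosen after their values were seen). For DTT+TUDCA against control ata-miR172c-5p_R-3 was at 0.06. No tae- or ata-named entry of miR157 or miR824 was listed.

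The tae- and ata-named sequences whose pattern over the 6 pools was most like osa-miR444b.1 were ata-miR156b-3p_1ss6TC, ata-miR9674b-3p and tae-MIR9674a-p5, with Pearson's r of 0.998, 0.995 and 0.994 on log2 values plus 1. The median over 107 candidates was 0.952, so most of them followed the same pools. For tae-miR5200 the closest were ata-miR169i-5p, tae-miR5048-5p_L-1 and tae-miR5048-5p_R-1, at 0.913, 0.889 and 0.881, with a median of 0.677. tae-miR5200 and osa-miR444b.1 were at 0.818. These values describe 6 pools of 3 samples, which share their scaling and depth.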

How the data were processed

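Leaf small RNA of 3 samples, 1 per treatment, was read as 2 pools each with TruSeq small RNA libraries and 50-base single reads, per the labels' protocols. The deposited values are signal, namely reads that the authors normalized and placed in 6 columns, per the file headers. Aligner, counter, filters and scaling rule: not given in the sources used here. Pools were treated as repeat runs, so no p-value was computed.

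The 1969 rows hold 1896 distinct sequences. To find what 1 read was worth in a pool, its commonest value was divided by 1, 2, 3 and so on until at least 90% of values were whole reads. With a tolerance of 0.01, 95.1% to 97.3% were. The rest were fractional, and no test on counts was made.

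Ratios used summed pools, a pseudocount of 1, a floor of 20 and a 2-fold limit. The pseudocount shrinks the ratios of low sequences. Sequences with a mean of at least 20 are named, with the 3 most alike and the most abundant entry per flowering family. Families, lists and rules were chosen with earlier results of these data known. Family sums count identical values once.

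Alternatives were equal totals, median-of-ratios over 885 sequences or over 113 tae- and ata-named ones, a pseudocount of 5, no floor, a floor of 100, a 1.5-fold limit, merged identical values and leaving out each pool. Ratio and call steps were tested on simulated pools. Those pools differed within a treatment by counting noise only, so the check does not show whether calls hold in these pools. Python 3.11.15, pandas 2.3.3, numpy 2.4.6, scipy 1.17.1 and matplotlib 3.10.9 were used.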

Additional observations from a re-analysis of the deposited data

How the results depend on the processing

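How many miR444 and miR5200 members lay past 2-fold in the comparisons with DTT+TUDCA changed with the scaling and with the pool left out. With median-of-ratios over all sequences, 6 members were higher and 1 lower for DTT+TUDCA against control, in place of 11 and 0, and 8 were higher against DTT, in place of 13. Over all sequences the shares moved too, to 34.1% higher and 8.15% lower against control (41.4% and 6.05% as deposited) and to 28.7% higher against DTT (40.2% as deposited). Scaled to the tae- and ata-named sequences, 1 was higher and 2 lower for DTT+TUDCA against control, 2 and 1 for DTT against control, and 0 higher for DTT+TUDCA against DTT, beside 18.6% and 11.7%, 17.9% and 9.95%, and 7.43% higher of all sequences. Without a floor, 17 were higher for DTT+TUDCA against control, and 2 higher and 4 lower for DTT against control. With a floor of 100, 0 were higher for DTT against control and 7 for DTT+TUDCA against DTT, where fewer members were measured. With a 1.5-fold limit, 1 was lower for DTT+TUDCA against control and 2 higher for DTT against control. Leaving out each pool in turn gave 0 to 15 higher and 0 to 8 lower for DTT+TUDCA against control, 0 to 3 higher and 1 to 4 lower for DTT against control, and 0 to 17 higher and 0 to 6 lower for DTT+TUDCA against DTT. Over all sequences, 15.0% to 53.7% were then higher and 7.61% to 23.9% lower for DTT+TUDCA against control. The shares were 17.6% to 24.7% and 10.5% to 18.9% for DTT against control. For DTT+TUDCA against DTT they were 5.56% to 58.9% and 4.55% to 22.6%. No such shares are given for the changed floors or the 1.5-fold limit, so those counts are not read as particular to the members. Equal totals, a pseudocount of 5 and merging identical values left every count within 1.5 times.

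Some log2 ratios past 2-fold changed sign. Scaled to the tae- and ata-named sequences, those of DTT+TUDCA to control were -0.43 for osa-miR444b.1, -0.20 for bdi-MIR444b-p3, -0.20 for osa-MIR444c-p3_1 and osa-MIR444c-p3_2 each, and -0.30 for the summed miR444 family. Those of DTT+TUDCA to DTT were -0.24 for osa-miR444b.1, -0.25 for bdi-miR444c, -0.25 for hvu-miR444b, -0.094 for osa-miR444b.1_L+1, -0.032 for osa-MIR444c-p3_1 and osa-MIR444c-p3_2 each, -0.15 for the summed miR444 family and -0.52 for the summed miR5200 family. That scaling moved the median of all sequences from 0.66 to 0.22 for DTT+TUDCA against control, and from 0.72 to 0.01 for DTT+TUDCA against DTT. The signs turned without DTT+TUDCA pool 1, except for bdi-miR444c in DTT against control, which turned without control pool 2. Over the pools left out, ratios of DTT+TUDCA to control ran from -1.51 to 1.93 for osa-miR444b.1, -1.10 to 2.08 for bdi-MIR444b-p3, -1.08 to 3.15 for hvu-miR444b, -0.0094 to 3.55 for osa-miR444b.1_L+1, -0.93 to 2.53 for osa-miR444b.1_L-2, -1.13 to 2.91 for osa-MIR444b-p3, -1.46 to 2.43 for osa-MIR444c-p3_1 and osa-MIR444c-p3_2, and -1.38 to 2.02 for the summed miR444 family. Ratios of DTT+TUDCA to DTT ran from -1.33 to 2.10 for osa-miR444b.1, -0.91 to 2.26 for bdi-MIR444b-p3, -1.47 to 2.31 for bdi-miR444c, -1.48 to 2.39 for hvu-miR444b, -0.85 to 1.86 for osa-miR444b.1_L+1, -0.68 to 2.78 for osa-miR444b.1_L-2, -0.76 to 3.28 for osa-MIR444b-p3, -1.18 to 2.40 for osa-MIR444c-p3_1 and osa-MIR444c-p3_2, -1.19 to 2.21 for the summed miR444 family and -1.77 to 1.94 for the summed miR5200 family. bdi-miR444c for DTT against control ran from -1.88 to 0.45. The cause was not tested.

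The log2 ratio of tae-miR5200 for DTT against control lay between -1.72 and -1.61 under the other scalings and the pseudocount of 5. Its within-pool ratio to osa-miR444b.1 lay between -1.64 and -1.45 for DTT against control and between -1.92 and -1.73 for DTT+TUDCA against control when a pool was left out. Set against other denominators, chosen after the data were seen, these were -2.03 to -1.52 and -2.50 to -1.01. The lowest, -2.03 and -2.50, were set against the median of the tae- and ata-named sequences, which is only a few reads in most pools. No paired analysis was possible because the labels give 1 sample per treatment and no replicate numbers. Depth limits the minor forms, whose control values rest on a few reads.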
